A study of Mus musculus with 4 samples.

Results

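Transcript levels of 8 genes that keep T cells in a naive, resting or memory state were examined in cultured mouse CD4+ T cells. The genes were Klf2, S1pr1, Foxo1, Tcf7, Lef1, Foxp1, Satb1 and Bach2, taken by symbol from a table of 34745 genes. All 8 were found, and all 8 were among the 13279 genes that passed the filter on low counts. Naive CD4+ T cells of spleen, taken from C57BL/6 mice, had been cultured for 3 days under conditions that turn them into regulatory T (Treg) cells, and total RNA was sequenced as 4 libraries. Wild type 13 and wild type 15 came from wild-type mice. Knockout-labelled 22 and 24 came from mice with the genotype Setd2-CD4 cre, a name that joins Setd2, the gene of the enzyme that trimethylates histone H3 at lysine 36, to a Cre recombinase driven by the CD4 promoter. Cre from this promoter is known to act already in thymocytes that give rise to both CD4 and CD8 T cells. The labels used here leave out the ages, the deleted exons, whether the wild-type mice carried Cre, and whether replicate libraries represent separate or pooled animals. The p-values therefore set the difference between groups only against a spread estimated from these libraries, and that spread may be technical.

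Resting T cells are maintained by a small network of transcription factors. FOXO1, which the kinase AKT moves out of the nucleus on stimulation, is known to switch on Klf2, and KLF2 is known to switch on S1pr1, the receptor for sphingosine 1-phosphate by which T cells leave lymphoid organs. TCF1 (encoded by Tcf7) and LEF1 are related HMG-box factors of naive and stem-like memory T cells, FOXP1 enforces quiescence, SATB1 organises T cell chromatin and BACH2 represses effector genes.

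Library totals ran from 14599957 to 16030869 counts, and 3 counts equalled 0.184 to 0.201 CPM (counts relative to the scaled library size). Setd2 stood at 137 and 146 CPM in wild type 13 and 15 and at 137 and 113 CPM in knockout-labelled 22 and 24. These groups overlapped (edgeR's quasi-likelihood test, adjusted p = 0.436), so the count over the whole gene does not check the label. Cd4 lay at 985.5 to 1257 CPM, and none of 10 markers of CD4 T cells passed the threshold in edgeR's test. Some markers of other lymphocytes did pass, all higher in knockout-labelled libraries, beside 5.53% higher among all genes tested. These were 1 of 11 tested for B cells (Igkc) and 3 of 6 for CD8 T cells (the receptor genes Klrd1, Klrc1 and Klrk1, and neither CD8 chain). Also passing were 3 of 6 for natural killer cells (Klri2, Klre1 and Gzma) and 3 of 6 for gamma-delta T cells (Tcrg-C1, Tcrg-C2 and Cd163l1). Levels were also summed over all markers of each list, in wild type 13 and 15 and then knockout-labelled 22 and 24. For B cells they were 234, 238, 315 and 350.2 CPM, most of it Ighm (207, 212, 247 and 308 CPM). Without Ighm, the other 11 B cell markers summed to 27.3, 26.3, 68.2 and 42.3 CPM, highest in knockout-labelled 22. Summed CD8 T cell markers were 196, 268, 472 and 310.4 CPM. The CD8 chains did not follow that sum, and the groups overlapped for each of them. Cd8a stood at 81.0, 120.3, 113 and 41.2 CPM and Cd8b1 at 43.8, 62.9, 69.1 and 37.3 CPM. The sums were 46.0, 41.0, 151 and 195.5 CPM for natural killer cells and 21.8, 21.3, 46.8 and 65.2 CPM for gamma-delta T cells. Gzma made up most of the natural killer sum (34.0, 29.6, 112 and 159 CPM), and Ncr1 stood at 0, 0, 0.535 and 0.192 CPM. The groups overlapped for Klrb1c, Trdc (5.09, 6.57, 10.1 and 5.81 CPM) and Tcrg-C4. No marker of these lists was at 0 in all 4 libraries, and of the 7 myeloid and 2 erythroid markers tested none passed. The part of such cells in the results that follow was not tested. In bulk RNA, fewer cells of a type and less RNA per cell cannot be told apart.

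None of the 8 factors passed an adjusted p of 0.05 in edgeR's quasi-likelihood test: 0 were higher and 0 lower, where 10.1% of all genes tested passed (5.53% higher and 4.59% lower). The means of the groups lay within 1.43-fold of each other for every factor. Tcf7 came nearest to the threshold and was the 1 factor with an unadjusted p below 0.05, which 31.6% of all genes tested reached. DESeq2 called 1 of the 8, again Tcf7, where it called 1098 of 13279 genes higher and 912 lower. With limma on log2(FPKM + 1), 0 of the 8 were called, where 445 of 13279 genes were higher and 446 lower. Fitted log2 fold changes (knockout-labelled minus wild type) were above 0 for 3 factors and below 0 for 5. Their median was -0.10, beside -0.0013 over all genes tested. The groups did not overlap for 2 of the 8, Tcf7 (higher) and Lef1 (lower), against 63.8% of all genes tested (31.1% higher and 32.7% lower).

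**Figure D1:**
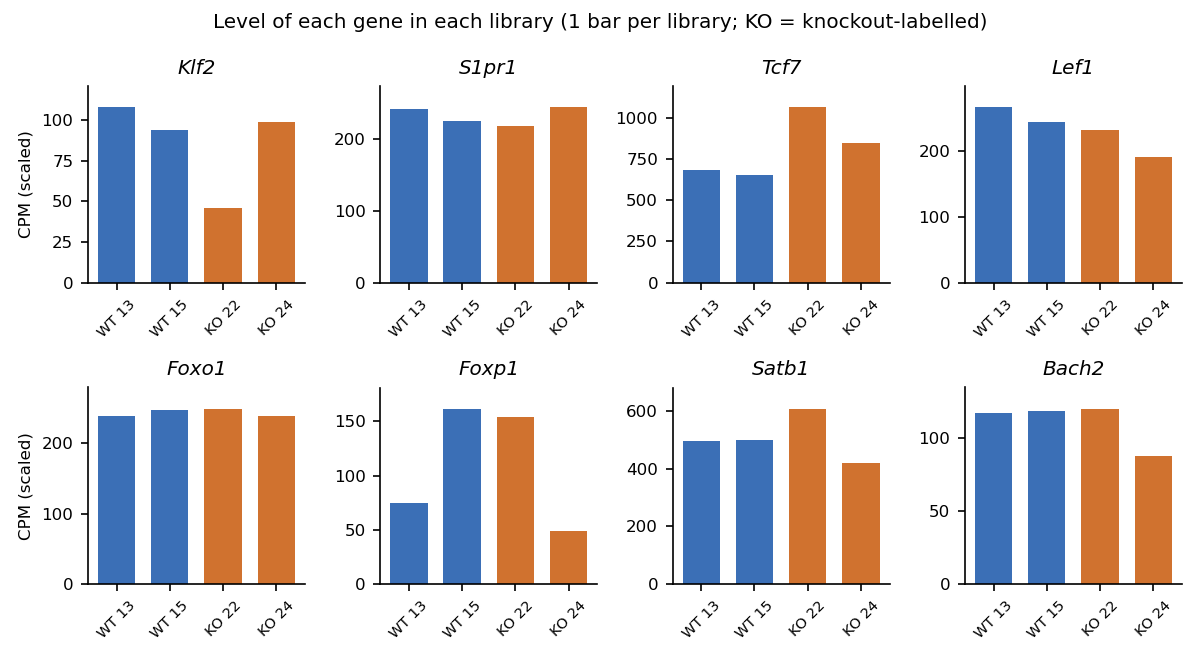
CPM (y axis, from 0) of each of the 8 factors in each library (x axis; blue wild type, orange knockout-labelled). Tcf7 is higher and Lef1 lower in both knockout-labelled libraries, Klf2 is low in knockout-labelled 22 alone, and Foxp1 is low in wild type 13 and knockout-labelled 24.

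FOXO1 heads the homing circuit. Foxo1 (ENSMUSG00000044167, GRCm38 chromosome 3, 52268336 to 52353221, plus strand) stood at 238 CPM in wild type 13, 248 in wild type 15, 249 in knockout-labelled 22 and 239 in knockout-labelled 24. All 4 libraries lay in a narrow band and the groups overlapped. The log2 fold change was 0.01 (SE 0.11, edgeR adjusted p = 0.970), and the 95% interval of the fold ran from 0.836 to 1.21. FOXO1 is regulated largely by its place in the cell, which RNA does not measure.

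Klf2 encodes a zinc-finger factor of quiescence and recirculation (ENSMUSG00000055148, chromosome 8, 72319033 to 72321656, plus strand). It stood at 107.9 CPM in wild type 13, 93.9 in wild type 15, 45.6 in knockout-labelled 22 and 99.0 in knockout-labelled 24. Only knockout-labelled 22 was low, and knockout-labelled 24 lay between the wild-type libraries. The means were 100.9 ± 9.86 and 72.3 ± 37.7 CPM (SD, n = 2 each), with a log2 fold change of -0.48 (SE 0.33, 95% interval -1.27 to 0.31, edgeR adjusted p = 0.358). The value rested on single libraries: dropping knockout-labelled 22 moved it to -0.02, and dropping knockout-labelled 24 moved it to -1.15. Either fit keeps a lone knockout-labelled library, so only its effect size is given. The knockout-labelled libraries lay 2.17-fold apart, a gap that 1.67% of the 10408 genes with a mean of 5 CPM or more reached.

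S1pr1 is the exit receptor (ENSMUSG00000045092, chromosome 3, 115710433 to 115715072, minus strand). It stood at 242 and 225 CPM in wild type 13 and 15 and at 218 and 245 CPM in knockout-labelled 22 and 24, and the groups overlapped. The log2 fold change was -0.01 (SE 0.12, edgeR adjusted p = 0.954), and the 95% interval of the fold ran from 0.809 to 1.21. The ratio of S1pr1 to Klf2 in FPKM (counts relative to library size and gene length) was 2.897 in knockout-labelled 22, against 1.36, 1.45 and 1.501 in wild type 13, wild type 15 and knockout-labelled 24. S1pr1 was also lowest in that library, but by a small margin.

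Over all genes tested, 5.53% rose and 4.59% fell, for comparison with this list and those that follow. Of 12 other homing and trafficking genes tested, 1 rose and 1 fell, with a median log2 fold change of 0.18. The riser was Il7r, which encodes the interleukin-7 receptor chain and is a known target of FOXO1. It stood at 275 and 268 CPM in wild type and at 761 and 601 CPM in knockout-labelled 22 and 24 (2.51-fold higher, edgeR adjusted p = 0.0113), so the groups did not overlap. Ccr7, the lymph node chemokine receptor gene, which was chosen after its values were seen, stood at 448 and 396 CPM in wild type and at 683 and 497 CPM in knockout-labelled 22 and 24 (log2 fold change 0.48, adjusted p = 0.110).

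Of 16 genes of the PI3 kinase and AKT pathway that controls FOXO1, 1 rose and 1 fell, with a median log2 fold change of 0.05. Pik3ip1, which encodes an inhibitor of PI3 kinase, rose from 24.5 and 29.2 CPM (wild type 13 and 15) to 111 and 61.9 CPM (knockout-labelled 22 and 24), with edgeR's adjusted p = 0.0223. Inpp4b, a lipid phosphatase gene, fell from 171 and 218 CPM to 122 and 94.5 CPM (adjusted p = 0.0383, but 0.0524 with limma on log2(FPKM + 1)). Its log2 fold change ran from -1.03 to -0.66 with a library left out. Of 11 genes tested for making, breaking down and sensing sphingosine 1-phosphate, 1 rose and 0 fell, with a median of 0.23. The riser was Rgs1, a brake on chemoattractant receptors, from 153 and 133 CPM to 402 and 297.5 CPM (adjusted p = 0.0158). Its log2 fold change ran from 1.07 to 1.49 with a library left out.

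Tcf7, the gene of TCF1 (ENSMUSG00000000782, chromosome 11, 52252371 to 52283014, minus strand), stood at 684 CPM in wild type 13, 653.5 in wild type 15, 1068 in knockout-labelled 22 and 847 in knockout-labelled 24. Both knockout-labelled libraries lay above both wild-type libraries. The means were 669 ± 21.5 and 958 ± 157 CPM (SD, n = 2 each), with a log2 fold change of 0.52 (SE 0.14, 95% interval 0.19 to 0.85, 1.14-fold to 1.80-fold). In edgeR's test p was 0.00781 and the adjusted p 0.0597. The adjusted p was below the threshold with DESeq2 (0.0217) and with edgeR and no filter on low genes (0.0167). It was 0.0870 with limma on log2(FPKM + 1). The log2 fold change was 0.54 without wild type 13, 0.48 without wild type 15, 0.35 without knockout-labelled 22 and 0.67 without knockout-labelled 24. An antisense gene that overlaps Tcf7, A630014C17Rik, had 56, 42, 121 and 84 counts in the 4 libraries, against 9742 to 15965 for Tcf7. Whether counting used strand is not given, so reads of the overlap cannot be told apart. By distance over the 4 libraries on centred log2 CPM, the genes most like Tcf7 among 9872 searched were Sec24a (0.020), Trip10 (0.023) and Csnk1a1 (0.027).

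Lef1, the gene of the related factor LEF1 (ENSMUSG00000027985, chromosome 3, 131110471 to 131224356, plus strand), stood at 267.5 and 245 CPM in wild type 13 and 15 and at 232.5 and 192 CPM in knockout-labelled 22 and 24. Both knockout-labelled libraries lay below both wild-type libraries. The log2 fold change was -0.27 (SE 0.14, 95% interval -0.60 to 0.06, edgeR adjusted p = 0.227), and without knockout-labelled 22 it was -0.41. The overlapping antisense gene Gm43352 had 41, 49, 23 and 67 counts, against 3004 to 4365 for Lef1.

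The FPKM ratio of Tcf7 to Lef1 was 7.05 in wild type 13, 7.36 in wild type 15, 12.7 in knockout-labelled 22 and 12.2 in knockout-labelled 24. The libraries of a group lay close together, and the group means differed by 0.79 on the log2 scale. This ratio and that of S1pr1 to Klf2 were chosen after their values were seen and have no test; an exact permutation test of 2 against 2 libraries cannot give a p below 0.333. Of 14 cofactors of TCF and LEF factors tested with edgeR, 0 rose and 0 fell, with a median log2 fold change of -0.13. Bcl9, an adaptor of beta-catenin, had the smallest adjusted p of them at 0.0614, with a log2 fold change of -0.59.

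**Figure D2:**
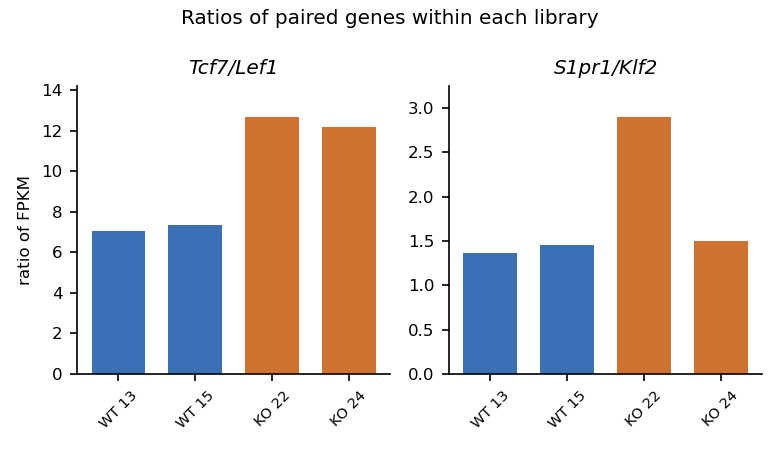
Ratios of deposited FPKM (y axis) between pairs of genes in each library (x axis; blue wild type, orange knockout-labelled). Tcf7 to Lef1 is 7.05 and 7.36 in wild type and 12.7 and 12.2 in knockout-labelled libraries, and S1pr1 to Klf2 stands apart in knockout-labelled 22 at 2.897.

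The sequences next to the annotated starts of Tcf7 and Lef1 are shown because these were the 2 factors whose groups did not overlap. Each is the 250 bases before a RefSeq start site (GRCm38.p6), 5′ to 3′ on the strand of the gene, with CpG dinucleotides in capitals: chr11:52283015-52283264 on the minus strand for Tcf7, and chr3:131110073-131110322 on the plus strand for Lef1.
Tcf7: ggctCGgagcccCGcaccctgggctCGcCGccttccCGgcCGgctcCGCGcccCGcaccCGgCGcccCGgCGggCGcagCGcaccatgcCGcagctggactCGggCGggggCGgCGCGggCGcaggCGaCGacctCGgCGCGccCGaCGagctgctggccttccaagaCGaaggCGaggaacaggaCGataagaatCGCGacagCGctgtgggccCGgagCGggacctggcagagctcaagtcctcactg
Lef1: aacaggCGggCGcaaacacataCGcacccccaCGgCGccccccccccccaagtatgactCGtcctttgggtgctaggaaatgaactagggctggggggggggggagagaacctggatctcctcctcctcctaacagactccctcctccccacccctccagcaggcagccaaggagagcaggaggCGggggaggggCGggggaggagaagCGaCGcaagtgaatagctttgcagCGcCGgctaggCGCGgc
The Tcf7 stretch is not simply upstream sequence. From an ATG at its base 86 an open reading frame of 55 codons runs to the end of the stretch with no stop, and it reads as the start of the long form of TCF1. The stretch ends where the deposited position of Tcf7 begins, so it lies outside the gene model that was counted, and its content is not described here as that of a promoter. The Lef1 window ended 148 bases before the deposited start of Lef1 and held 14 CpG dinucleotides at 66.4% GC, where the median of 32817 windows was 6 at 52.4% GC.

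Windows were found for 7 of the 8 factors, all but S1pr1. Leaving out Tcf7, both strands of the other 6 were searched for a FOXO motif (GTAAACA), a KLF motif (CCACACCC), a TCF and LEF motif (ATCAAAG) and a BACH and small Maf motif (TGANTCAGC). Of the 6 windows, 0 held any of them, where 3.16%, 3.19%, 3.21% and 1.02% of all windows held the respective motif. These windows are not all at the starts of the gene models counted: that of Bach2 lay 178631 bases from the deposited start, inside the gene, and that of Foxp1 1728 bases from it. Those of Klf2, Foxo1 and Foxp1 overlapped annotated UTRs. The search says only that these letters are not in these windows.

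Foxp1, the forkhead gene of quiescence (ENSMUSG00000030067, chromosome 6, 98925338 to 99522721, minus strand), differed between the libraries within each group. It stood at 74.7 CPM in wild type 13, 162 in wild type 15, 154 in knockout-labelled 22 and 48.8 in knockout-labelled 24. Each group had a high and a low library, and the groups overlapped. The means were 118 ± 61.6 and 101 ± 74.3 CPM (SD, n = 2 each), with a log2 fold change of -0.22 (SE 0.55, edgeR adjusted p = 0.811) and a 95% interval of the fold from 0.345 to 2.13. Leaving out a library moved it from -1.27 (without knockout-labelled 22) to 0.43 (without wild type 15). The libraries held 1218, 2412, 2299 and 764 counts of Foxp1. The wild-type libraries lay 2.17-fold apart and the knockout-labelled libraries 3.15-fold, where the median gene with a mean of 5 CPM or more lay 1.08-fold and 1.17-fold apart. Of those 10408 genes, 22 were 2-fold or more apart in both pairs, and Foxp1 was 1 of them. Among the 22, 9 including Foxp1 were higher in wild type 15 than 13 and in knockout-labelled 22 than 24.

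The genes whose pattern lay nearest to Foxp1 were Diap2 (distance 0.335), Vps26a (0.375) and Cd8a (0.452), in a search chosen after the values were seen. Cd8a, a chain of the CD8 coreceptor, stood at 81.0 and 120.3 CPM in wild type 13 and 15 and at 113 and 41.2 CPM in knockout-labelled 22 and 24, and Cd8b1 at 43.8, 62.9, 69.1 and 37.3 CPM. Both CD8 chains were low in the libraries in which Foxp1 was low, and their part in the level of Foxp1 was not tested.

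**Figure D3:**
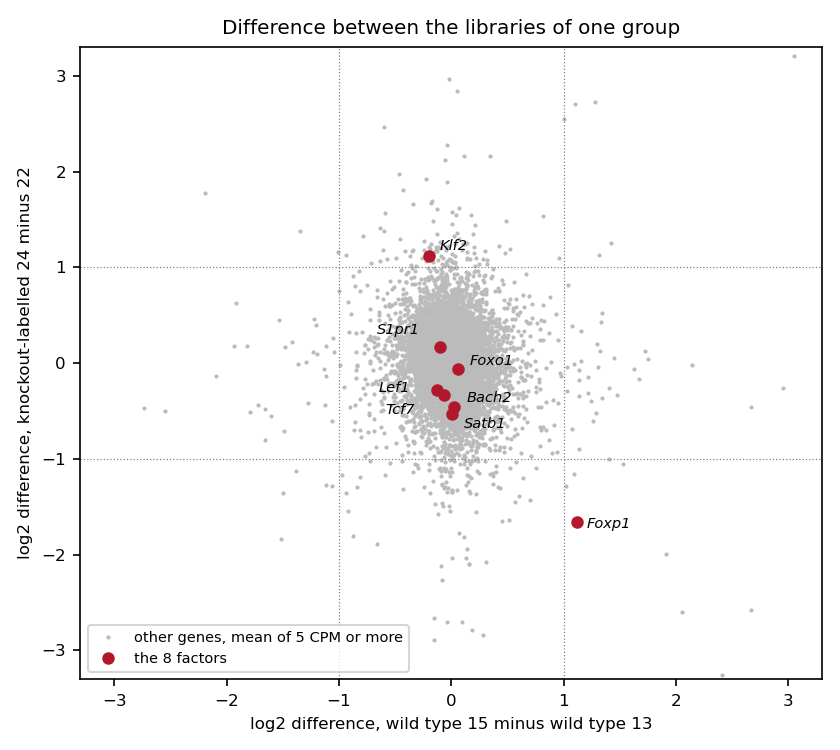
Log2 difference in CPM between the wild-type libraries (x axis, 15 minus 13) and between the knockout-labelled libraries (y axis, 24 minus 22) for genes with a mean of 5 CPM or more and for the 8 factors, which are named; 5 genes lie outside the axes. Dotted lines mark 2-fold. Foxp1 lies beyond 2-fold on both axes and Klf2 beyond 2-fold between the knockout-labelled libraries.

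Satb1, the gene of the chromatin organiser (ENSMUSG00000023927, chromosome 17, 51736187 to 51833290, minus strand), stood at 498 and 499 CPM in wild type 13 and 15, 609.6 in knockout-labelled 22 and 422 in knockout-labelled 24. The wild-type libraries nearly coincided, and the knockout-labelled libraries lay on either side of them. The log2 fold change was 0.05 (SE 0.18, 95% interval -0.38 to 0.48, edgeR adjusted p = 0.875). Its sign turned, to -0.23, once knockout-labelled 22 was dropped, whereas dropping knockout-labelled 24 instead raised it to 0.29. Only effect sizes are given for these fits, as each had a lone knockout-labelled library.

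Bach2, the gene of the repressor of effector programmes (ENSMUSG00000040270, chromosome 4, 32238804 to 32586108, plus strand), stood at 117 and 119 CPM in wild type 13 and 15, 120.5 in knockout-labelled 22 and 87.9 in knockout-labelled 24. Only knockout-labelled 24 was low. The log2 fold change was -0.18 (SE 0.17, 95% interval -0.60 to 0.23, edgeR adjusted p = 0.510). The fit that kept only knockout-labelled 24 in its group gave -0.42, and the fit that kept only knockout-labelled 22 gave 0.03. Both are effect sizes from a lone knockout-labelled library.

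Of 17 partners of BACH2 and genes it is known to repress, 5 rose and 0 fell, beside 5.53% and 4.59% of all genes tested. The median log2 fold change was 0.35. Prdm1, the gene of the effector repressor BLIMP1, rose from 13.2 and 12.3 CPM (wild type 13 and 15) to 25.5 and 29.0 CPM (knockout-labelled 22 and 24), with edgeR's adjusted p = 0.0204. Nfil3 rose 1.92-fold (adjusted p = 0.0218) and Bhlhe40 1.72-fold (adjusted p = 0.0299), and both encode transcription factors of effector T cells. The others, Batf and Ahr (adjusted p = 0.0332 and 0.0410), were named after their values were seen. With a library left out, log2 fold changes ran from 0.99 to 1.19 for Prdm1, 0.78 to 1.09 for Nfil3 and 0.58 to 0.96 for Bhlhe40.

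**Figure D4:**
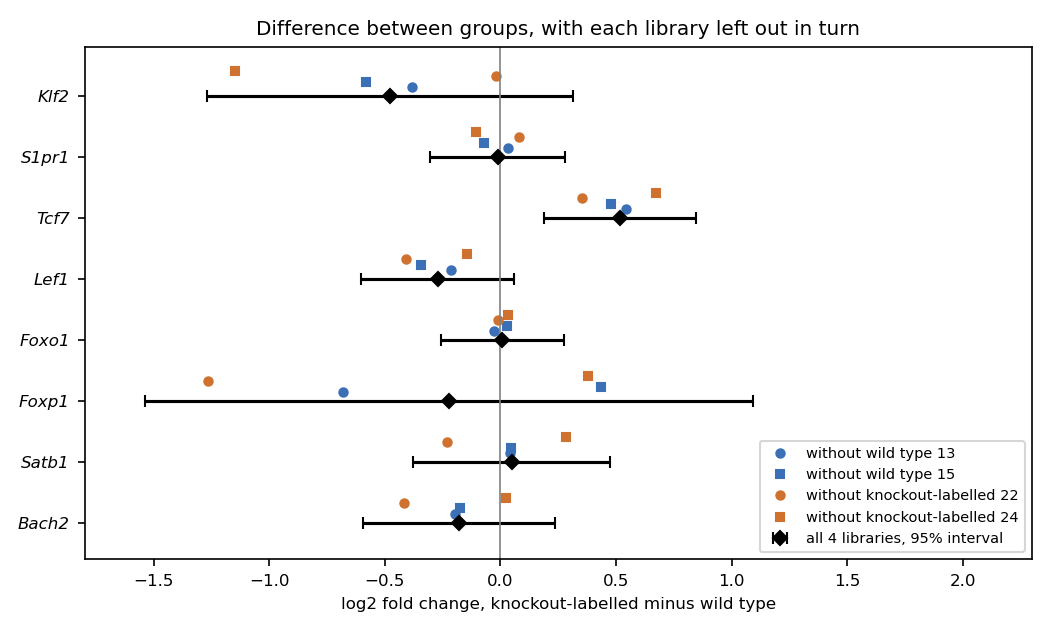
Log2 fold change, knockout-labelled minus wild type (x axis), of each of the 8 factors (y axis) from all 4 libraries with its 95% interval, and after dropping single libraries. The interval of Tcf7 lies above 0 (0.19 to 0.85), that of Foxp1 is the widest (-1.54 to 1.09), and values of Klf2 run from -1.15 to -0.02.

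Per length, Tcf7 was the most abundant of the 8. Its FPKM, as deposited by the authors, was 199 to 305 over the 4 libraries, and its mean lay above that of 99.2% of the genes tested. S1pr1 followed at 68.6 to 80.9 FPKM and Klf2 at 23.7 to 59.4 FPKM. Foxo1 (28.0 and 29.2 FPKM) and Lef1 (29.5 and 27.0 FPKM) overlapped in wild type, whereas in knockout-labelled libraries Lef1 (24.1 and 20.8 FPKM) lay below Foxo1 (27.6 FPKM in both). Satb1 (12.7 to 17.6 FPKM) came next, and Bach2 (4.51 to 6.22 FPKM) and Foxp1 (2.01 to 6.79 FPKM) overlapped at the low end. The group means had the same order in both groups.

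That order depends on the length assigned to each gene. The deposited counts and FPKM imply 33.1 kb for Satb1, where its longest coding transcript in GENCODE M21 is 6.24 kb. They imply 24.3 kb for Foxp1 and 19.5 kb for Bach2, against 7.18 and 8.88 kb. Divided by the longest coding transcript, the mean of Satb1 in wild type was 79.9 CPM per kb, near S1pr1 (76.7) and Lef1 (73.6), while Tcf7 remained highest at 270.6. Both wild-type libraries of Satb1 (79.8 and 80.0 CPM per kb) then lay just above those of S1pr1 (79.4 and 73.9).

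Of the 17 family relatives of the 8 factors, 12 could be tested, 1 rose and 0 fell, with a median log2 fold change of 0.24. Klf6, a zinc-finger relative of Klf2, rose from 239 and 231 CPM (wild type 13 and 15) to 378 and 338 CPM (knockout-labelled 22 and 24), with edgeR's adjusted p = 0.0308. Its log2 fold change ran from 0.53 to 0.68 with a library left out.

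Of 17 other factors of T cell quiescence, 6 rose and 0 fell, beside 5.53% and 4.59% of all genes tested. The median log2 fold change was 0.18. Mxi1, an antagonist of MYC, rose from 65.8 and 65.9 CPM (wild type 13 and 15) to 167 and 119 CPM (knockout-labelled 22 and 24), with edgeR's adjusted p = 0.0223. Cdkn1b, which encodes the cell cycle inhibitor p27, rose 1.86-fold (adjusted p = 0.0235), and Btg1, an antiproliferative gene, rose 1.52-fold (adjusted p = 0.0275). With a library left out, log2 fold changes ran from 0.86 to 1.34 for Mxi1, 0.76 to 1.03 for Cdkn1b and 0.53 to 0.66 for Btg1.

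Of 16 other genes of naive and memory T cells, 0 rose and 4 fell, beside 5.53% and 4.59% of all genes tested. The median log2 fold change was -0.24. Treml2 fell from 591 and 617.5 CPM (wild type 13 and 15) to 357 and 369.9 CPM (knockout-labelled 22 and 24), with edgeR's adjusted p = 0.0177. Eomes, a T-box factor of memory cells, fell from 22.7 and 21.7 CPM to 10.2 and 7.53 CPM (adjusted p = 0.0205). Bcl2, the survival gene, fell from 699 and 701 CPM to 381 and 455 CPM (adjusted p = 0.0233). With a library left out, log2 fold changes ran from -0.77 to -0.70 for Treml2, -1.55 to -1.12 for Eomes and -0.88 to -0.61 for Bcl2.

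Of 12 activation markers, 3 rose and 2 fell, beside 5.53% and 4.59% of all genes tested. The median log2 fold change was -0.01. Icos, a costimulatory receptor gene, rose from 429 and 402 CPM (wild type 13 and 15) to 938 and 921 CPM (knockout-labelled 22 and 24), with edgeR's adjusted p = 0.00947. Tnfrsf9 rose 1.73-fold (adjusted p = 0.0165) and Cd38 1.95-fold (adjusted p = 0.0172). Il2ra and Myc, named after their values were seen, were the genes that fell (adjusted p = 0.0304 and 0.0337). With a library left out, log2 fold changes ran from 1.11 to 1.20 for Icos, 0.73 to 0.84 for Tnfrsf9 and 0.88 to 1.05 for Cd38. They ran from -0.55 to -0.49 for Il2ra and -0.94 to -0.60 for Myc. Across the 9 lists of related genes, 26 genes passed, and 0 of these changed sign with any library left out. Whether they passed in those fits is not given, because a group then had a lone library.

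**Figure D5:**
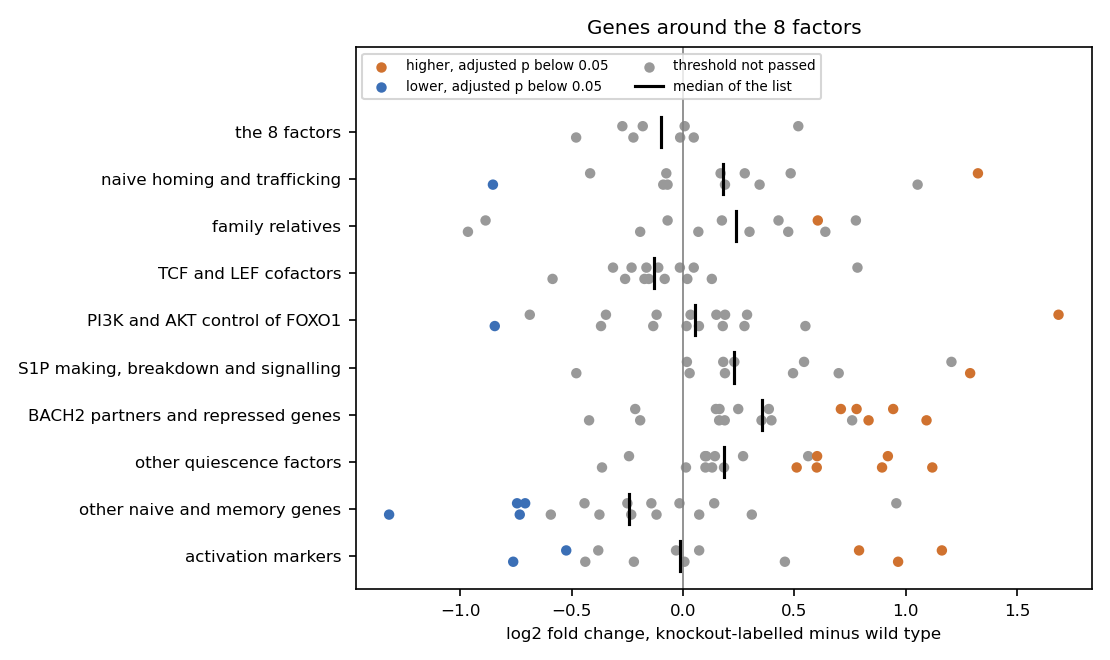
Log2 fold change, knockout-labelled minus wild type, of the tested genes of each list of related genes and of the 8 factors, with genes past an adjusted p of 0.05 marked in colour and the median of each list as a black bar. None of the 8 factors is marked, 5 BACH2-related genes and 6 other quiescence factors are marked above 0, and 4 other naive and memory genes are marked below 0.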

How the data were processed

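Total RNA of 4 libraries was sequenced on an Illumina HiSeq instrument. Counts per gene and FPKM were deposited by the authors, 1 column of each per library; Bowtie2, RSEM and GRCm38.p6 (mm10) are named per the submitters' processing notes, with no versions or strand setting given in the sources used here. Groups follow the genotype labels. Counts were filtered with filterByExpr (minimum count 10, minimum total 15), scaled by TMM and tested with edgeR 4.0.16 (quasi-likelihood, R 4.3.3), knockout-labelled against wild type, with Benjamini-Hochberg adjustment over 13279 genes and a threshold of 0.05. CPM used these scaled library sizes. Alternatives were other scalings and filters, DESeq2 1.42.0, limma 3.58.1 on log2(FPKM + 1) and log2(FPKM + 0.1), and leaving out each library. Scripts were tested on simulated data. Libraries of a group differed beyond counting error (chi-square per degree of freedom 9.90 and 30.6).

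The 8 factors and all gene lists were chosen with earlier results of these data known. The 205 list genes were matched by symbol (198), identifier (6) or older symbol (1). Named were all 8 factors, Setd2, up to 3 genes per list that passed, by adjusted p (with none, the smallest), and the 3 genes nearest to the factor with the smallest adjusted p. One named gene of the homing list is not reported here. Promoter windows came from RefSeq.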

Additional observations from a re-analysis of the deposited data

How the results depend on the processing

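Over all genes, 734 were higher and 610 lower. With no filter the counts were 1261 and 1088, with limma 445 higher on log2(FPKM + 1) and 457 on log2(FPKM + 0.1), with DESeq2 1098 and 912, and on library totals alone 674 and 771. Leaving out a library gave 120 to 2122 higher and 70 to 2002 lower. Of the 8 factors, 1 was higher with no filter and 1 with DESeq2, Tcf7 in both (log2 fold change 0.52 and 0.52), and leaving out a library gave 0 to 2 higher and 0 to 2 lower. Log2 fold changes with a library left out ran from -1.15 to -0.0173 for Klf2, -0.10 to 0.0795 for S1pr1, 0.35 to 0.67 for Tcf7, -0.41 to -0.14 for Lef1, -0.0272 to 0.0326 for Foxo1, -0.23 to 0.29 for Satb1, -0.42 to 0.0251 for Bach2 and -1.27 to 0.43 for Foxp1. The sign turned for S1pr1 with a filter at a mean of 5 CPM (0.00095). It turned for Foxo1 with upper-quartile scaling (-0.0229), library totals (-0.0504) and limma on either scale (-0.0487 and -0.0502), and for Satb1 with library totals (-0.0145) and limma (-0.0305 and -0.0334). The cause of these shifts was not tested. With a library left out, its group's lone library is assumed to vary like the other group. No paired analysis was possible because the groups share no replicate numbers. With 2 libraries a group, the intervals of Klf2 and Foxp1 span more than a 2-fold range.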

Other observations

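Gene span was set beside the fold changes because the 8 factors range from 2.62 kb (Klf2) to 597.4 kb (Foxp1). Of all genes tested, the median log2 fold change was -0.01 for spans under 10 kb (3989 genes), -0.02 from 10 to 50 kb (6089 genes), 0.03 from 50 to 100 kb (1788 genes) and 0.07 at 100 kb or more (1413 genes). The 3 factors in the longest class, Lef1, Bach2 and Foxp1, had values of -0.27, -0.18 and -0.22.

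Ets1, a transcription factor gene among the other quiescence factors, stood at 373 CPM in wild type 13 and at 1153, 1150 and 1103 CPM in wild type 15, knockout-labelled 22 and knockout-labelled 24 (edgeR adjusted p = 0.424). The genes nearest to Klf2 over the 4 libraries, in a search chosen after the values were seen, were Ckmt1 (distance 0.0414), Etv5 (0.0901) and Iglon5 (0.111). Etv5 stood at 8.76 and 8.05 CPM in wild type and at 3.68 and 8.68 CPM in knockout-labelled 22 and 24.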
